A study of Mus musculus with 12 samples.

Results

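The genes described here encode 7 membrane-spanning proteins of the nuclear envelope, several of them known for roles in muscle or for mutations in muscle disease, namely Ppapdc3, Tmem38a, Wfs1, Tmem201, Tor1aip1, Nrm and Tmem43. They were taken by symbol from a deposited expression table of 22552 mouse genes, and all 7 were found in it. RNA was sequenced from myoblasts, dividing cells that can fuse into muscle fibres, and from C57Bl/6 striated muscle, with 6 samples from each. The knockouts are labelled LBR_KO, for the gene of the lamin B receptor, or LMNA_KO, for the gene of lamins A and C. They were homozygous animals from matings of heterozygous parents, with wild-type animals of the litter as the stated controls. Only the wild-type myoblasts carry a litter in their label. Muscle of both knockouts is compared with the same wild-type column, whose litter is not labelled. The table has 7 columns, which are wild-type myoblasts of the Lbr litter, wild-type myoblasts of the Lmna litter, myoblasts of each knockout, wild-type muscle, and muscle of each knockout. Each wild-type myoblast column is 1 sample, and each of the other 5 columns stands for 2 samples with a single value, so that no group carries a replicate error. Neither the age of the animals, nor the muscle taken, nor the deleted part of Lbr or Lmna is given in the labels.

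The nuclear envelope is a double membrane that continues into the endoplasmic reticulum, and its inner face is lined by the lamina, a mesh of lamin filaments. Transmembrane proteins of the inner membrane bind lamins and chromatin and help to tether silent genes at the nuclear edge, and their set differs between tissues. In muscle the products of Ppapdc3, Tmem38a and Wfs1 are known to take part in placing genes at the periphery during differentiation. Tmem38a also encodes TRIC-A, a cation channel of the sarcoplasmic reticulum that balances charge during calcium release, and Wfs1 encodes wolframin, a protein of the endoplasmic reticulum involved in calcium balance and protein-folding stress. Tor1aip1 encodes LAP1, which binds lamins and activates torsin ATPases and is mutated in a muscular dystrophy. Tmem43 encodes LUMA, a partner of emerin and lamins that is mutated in an inherited cardiomyopathy. Tmem201 encodes Samp1, an inner membrane protein linked to the nucleoskeleton and the spindle, and Nrm encodes nurim, a multi-pass protein of the inner membrane.

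Levels are in FPKM, a fragment count scaled by transcript length and library size, which allows comparison between genes. Judged by the steps between low values, 1 FPKM at a transcript length of 2 kb stood for about 33.1 fragments in either wild-type myoblast column, 23.4 in either knockout myoblast column and 3.86 to 8.28 in the muscle columns, a rough figure that depends on how samples were combined. The lowest, 3.86 in Lmna-knockout muscle, is the least certain. Its step was seen in 71 values, against a median of 42 in nearby bins. The targeted genes were lower in their own knockouts. Lbr stood at 1.87 FPKM in Lbr-knockout muscle against 11.8 in wild-type muscle, but at 7.71 in Lbr-knockout myoblasts against 16.1 in their own wild type. Lmna stood at 18.5 FPKM in Lmna-knockout myoblasts against 147, and at 22.6 in Lmna-knockout muscle against 59.5. Muscle markers were in accord with the tissue label, with Ckm, the muscle creatine kinase gene, at 4488 to 5120 FPKM in muscle and at or below 0.921 FPKM in myoblasts. The 10 myoblast markers were divided. The lineage genes Pax7, Myf5 and Myod1 were lower in the myoblast columns than in muscle, as were Des, Cdh15 and Itga7, while Vcam1 at -2.27, Ncam1 at -2.24 and the proliferation gene Mki67 at -1.70 were higher in wild-type myoblasts on the log2 scale, and Chrna1 stood at -0.33. Pax7 stood at 0.152 to 0.273 FPKM in myoblasts and 1.28 to 2.10 in muscle, Myf5 at 0.191 to 0.441 and 3.21 to 3.76, and Myod1 at 2.09 to 5.51 and 16.4 to 18.1. Of 10 myoblast markers, 7 or 8 reached 1 FPKM in each myoblast column. The columns are called myoblasts after their label.

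The tissue split the 7 genes into 3 sets. Tmem38a and Ppapdc3 were higher in muscle, Nrm and Tmem43 were higher in myoblasts, and Wfs1, Tor1aip1 and Tmem201 were within 2-fold in the wild type. None of the 7 differed by 2-fold between a knockout and its wild type in either tissue. The targeted gene Lbr, at -0.97 on the log2 scale in Lbr-knockout myoblasts, did not reach 2-fold either. A value within 2-fold, from 1 column against another, therefore does not show that a gene was unchanged. The plot of levels by group shows the tissue split and the knockout values together. Whether the tissues overlap is given below for single genes, and the share of all genes without overlap was not counted. Between the wild-type tissues 54.1% of 11911 genes differed by 2-fold, so separate tissues are no trait particular to these genes.

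**Figure D1:**
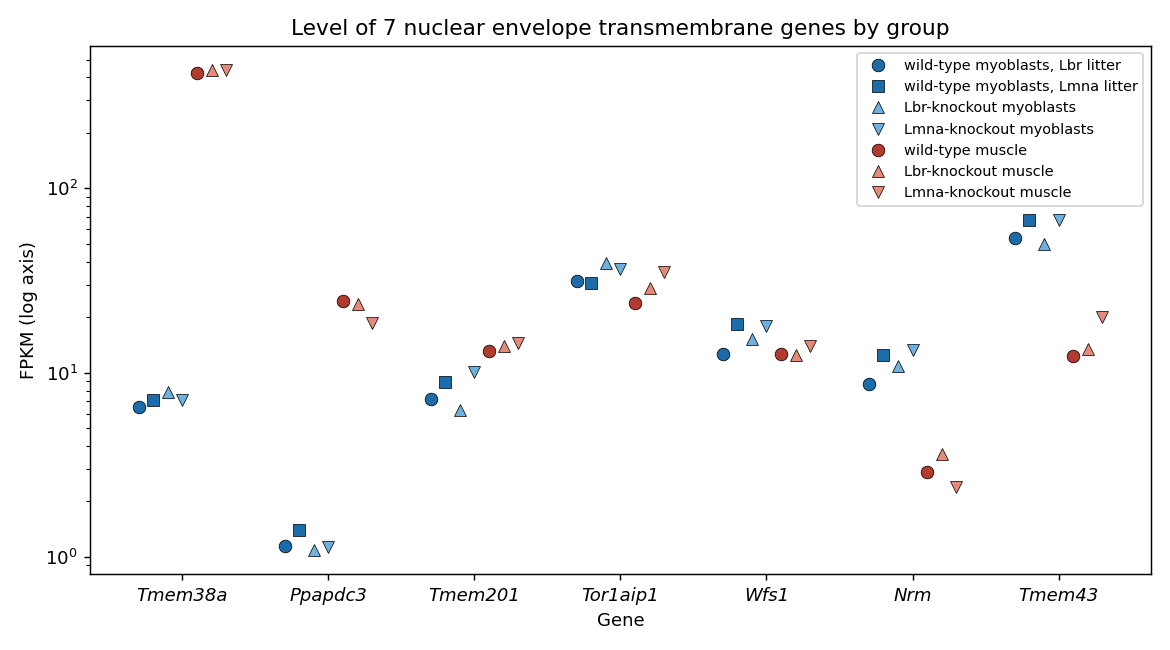
FPKM on a log axis of each gene in the 7 group columns (blue, myoblasts; red, muscle; dark, wild type; pale, knockout), with 1 deposited value per point and no error bars. The 3 muscle columns lie above all 4 myoblast columns for Tmem38a, Ppapdc3 and Tmem201, below them for Nrm and Tmem43, and overlap them for Tor1aip1 and Wfs1. The share of all genes without overlap was not counted.

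Tmem38a had the highest level and the largest tissue difference of the 7. It stood at 6.51 and 7.14 FPKM in the wild-type myoblasts of the Lbr and Lmna litters, at 7.82 in Lbr-knockout and 7.10 in Lmna-knockout myoblasts. In muscle it stood at 424 FPKM in the wild type, 438 in the Lbr knockout and 439 in the Lmna knockout. The tissues did not overlap, and within a tissue the columns were close, the highest being 1.20 times the lowest in myoblasts and 1.04 times in muscle. Wild-type muscle was 62.1 times the mean of the wild-type myoblasts, and the ratio was 56.0 in the Lbr knockout and 61.9 in the Lmna knockout. In muscle the gene lay at the 99.3 percentile of all genes, and it made up 80.8% to 82.6% of the summed FPKM of the 7 genes there against 4.64% to 5.98% in myoblasts.

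Ppapdc3, which belongs to the lipid phosphatase superfamily, had the lowest level in myoblasts. It stood at 1.15 and 1.40 FPKM in the wild types of the Lbr and Lmna litters, at 1.09 in the Lbr knockout and 1.13 in the Lmna knockout. In muscle it stood at 24.6 FPKM in the wild type, 23.7 in the Lbr knockout and 18.7 in the Lmna knockout. All muscle values were above all myoblast values, and the Lmna knockout was the lowest of the muscle columns. The wild-type ratio was 19.2, with 21.8 in the Lbr knockout and 16.5 in the Lmna knockout. By the depth estimate and a transcript of 1.95 kb, its myoblast values rest on about 24.8 to 45.2 fragments.

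Tmem43 was highest in myoblasts, where it was also the most abundant of the 7. It stood at 54.1 and 67.3 FPKM in the wild types of the Lbr and Lmna litters, at 50.2 in the Lbr knockout and 67.2 in the Lmna knockout. In muscle it stood at 12.2 FPKM in the wild type, 13.4 in the Lbr knockout and 20.1 in the Lmna knockout. The tissues did not overlap. The mean of the wild-type myoblasts was 4.96 times wild-type muscle, and the myoblast value was 3.75 times the muscle value in the Lbr knockout and 3.35 times in the Lmna knockout.

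Nrm, too, was lower in muscle. Its levels in myoblasts were 8.63 and 12.5 FPKM in the wild types of the Lbr and Lmna litters, 10.9 in the Lbr knockout and 13.3 in the Lmna knockout. In muscle they were 2.90 FPKM in the wild type, 3.63 in the Lbr knockout and 2.40 in the Lmna knockout. The wild-type myoblasts were on average 3.64 times wild-type muscle, with 3.0 in the Lbr knockout and 5.53 in the Lmna knockout. With a transcript of 1.47 kb the muscle values rest on about 6.81 to 17.6 fragments, a depth that sets a wide counting error on the differences among the muscle columns.

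Tmem201 had a smaller difference in favour of muscle. It stood at 7.24 and 8.95 FPKM in the wild-type myoblasts of the Lbr and Lmna litters, at 6.25 in the Lbr knockout and 10.1 in the Lmna knockout, and in muscle at 13.1 in the wild type, 13.9 in the Lbr knockout and 14.5 in the Lmna knockout. The tissues did not overlap. The wild-type ratio of muscle to myoblasts was 1.62, and the ratios were 2.23 in the Lbr and 1.43 in the Lmna knockout.

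Tor1aip1 and Wfs1 were at like levels in both tissues. Tor1aip1 stood at 31.5 and 30.6 FPKM in the wild-type myoblasts of the Lbr and Lmna litters, 39.4 in the Lbr knockout and 36.4 in the Lmna knockout, against 24.0, 28.7 and 35.2 in wild-type, Lbr-knockout and Lmna-knockout muscle. Wfs1 stood at 12.6 and 18.3 FPKM in the wild-type myoblasts, 15.2 in the Lbr knockout and 18.0 in the Lmna knockout, against 12.5, 12.5 and 13.9 in wild-type, Lbr-knockout and Lmna-knockout muscle. The tissues overlapped for both genes.

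The order of the levels within a tissue followed from these values. In wild-type myoblasts of either litter it ran, from high to low, Tmem43, Tor1aip1, Wfs1, Nrm, Tmem201, Tmem38a and Ppapdc3, with Nrm, Tmem201 and Tmem38a between 6.51 and 12.5 FPKM. In wild-type muscle Tmem38a was followed by Ppapdc3 at 24.6 and Tor1aip1 at 24.0 FPKM, then by Tmem201, Wfs1 and Tmem43 between 12.2 and 13.1 FPKM, and last by Nrm. The only spread between single samples is that of the wild-type myoblasts, whose litters differed by up to 0.51 on the log2 scale for these genes. That is the spread of a gene between samples and not the error of a gap between genes within a column. The order of genes at close levels was not tested.

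The tissue difference was set against all genes on the log2(FPKM + 1) scale, which understates differences of low genes, and called at 2-fold, a log2 difference of 1. In the wild type 54.1% of 11911 genes differed by 2-fold, 16.9% higher and 37.2% lower in muscle. Of the 7 genes, 2 were higher and 2 lower: Tmem38a at 5.76, Ppapdc3 at 3.49, Nrm at -1.55 and Tmem43 at -2.21. Tmem201 stood at 0.64, Wfs1 at -0.26 and Tor1aip1 at -0.36. In the Lbr-knockout columns 5 of the 7 passed 2-fold, Tmem201 at 1.04 among them, beside 54.1% of genes, and in the Lmna-knockout columns 4 did, beside 52.8%. The share of the 7 past 2-fold is near that of all genes, while the difference of Tmem38a was reached or passed by 0.949% of genes and that of Ppapdc3 by 5.15%. The median of the 7 was -0.26 and that of all genes -0.57. Relative to that median, with columns centred on it, Tmem201 came to 1.20 and Nrm to -0.98, and Wfs1 and Tor1aip1 changed sign to 0.31 and 0.20. The share of genes higher in muscle among those past 2-fold moved from 31.3% to 54.0% with centring and to 46.8% with quantile normalization.

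A limma fit over all 7 columns, with tissue and genotype as additive terms, gave a test of the tissue difference in which tissue-specific knockout effects count as error. It called 78.9% of 12001 genes, 26.6% higher and 52.3% lower in muscle, and 5 of the 7. Tmem38a was higher by 5.73 ± 0.13 (SE) on the log2 scale with a limma adjusted p of 5.475e-08, in 3 of 3 genotypes. Ppapdc3 was higher by 3.43 ± 0.14 (limma adjusted p 3.587e-07) and Tmem201 by 0.71 ± 0.16 (limma adjusted p 0.003307). For Tmem43 the coefficient was -1.94 ± 0.16 (limma adjusted p 1.061e-05) and for Nrm -1.65 ± 0.19 (limma adjusted p 6.846e-05). The calls missed Wfs1, at -0.29 ± 0.16 with a limma adjusted p of 0.1326, and Tor1aip1, at -0.29 ± 0.14 with 0.08639. With a litter term for the myoblast columns, added after seeing the data, Tor1aip1 passed at -0.37 (limma adjusted p 0.03041), the tissue term then being muscle against the Lbr litter. The library kit differed between myoblasts and muscle, so tissue and kit cannot be told apart.

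**Figure D2:**
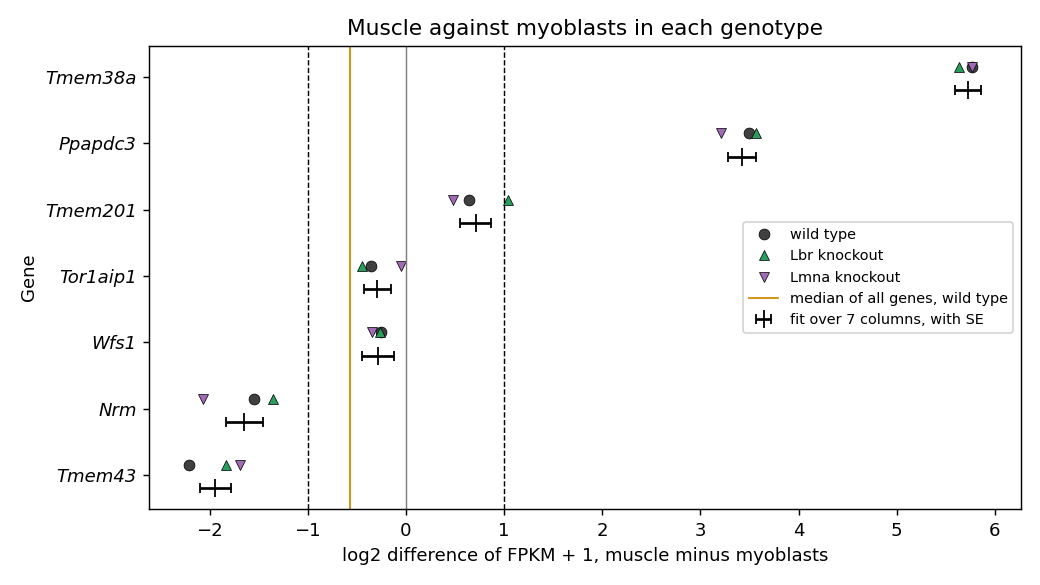
Log2 difference of FPKM + 1, muscle minus myoblasts, for each gene in the wild type (circles) and both knockouts (triangles), with the coefficient and standard error of the fit over 7 columns (black bars), 2-fold marked by dashed lines and the wild-type median of all genes in orange. Tmem38a at 5.64 to 5.76 and Ppapdc3 at 3.21 to 3.57 stand far right, Nrm and Tmem43 lie below -1 in all 3 genotypes, and Tmem201 passes 2-fold in the Lbr knockout only, at 1.04.

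Cell types other than muscle cells differed between the tissues as well. The 7 fibroblast markers summed to 2601 to 2948 FPKM in the myoblast columns and 1664 to 1770 FPKM in muscle, but they were divided. Between wild-type muscle and myoblasts Thy1 stood at -4.09, Col1a1 at -1.32 and Col1a2 at -0.88, Pdgfra at -0.67 and Col3a1 at -0.07, against Dcn at 3.65 and Lum at 5.63. The 12 macrophage and leukocyte markers summed to 393 FPKM in Lbr-litter wild-type myoblasts, to 1188 to 1436 FPKM in the other myoblast columns and to 112 to 176 FPKM in muscle. Cd3e was at 0 in Lmna-litter wild-type and Lmna-knockout myoblasts. Most of the sum in myoblasts was Lyz2, at 316 to 1131 FPKM. This list was divided too, with C1qa at 1.52 and Cd79a at 1.83 between wild-type muscle and myoblasts, and the other markers compared lower in muscle. The 5 endothelial markers summed to 5.49 to 8.76 FPKM in myoblasts and 154 to 178 FPKM in muscle. The 7 adipocyte markers summed to 5.79 to 14.0 FPKM in myoblasts, where up to 5 of them were at 0, Retn in all 4 columns, and to 95.1 to 298 FPKM in muscle. Pparg went the other way, at 5.63 to 10.3 FPKM in myoblasts and 2.02 to 2.37 in muscle, and made up most of the myoblast sums. The part of these cells in the differences of the 7 genes was not tested, and fewer cells of a type cannot be told apart from less RNA per cell.

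The start sites of the 4 genes past 2-fold are printed because these genes differed between the tissues in opposite directions. All 7 genes had a window in the RefSeq promoter table of build GRCm38.p6, which is not the build of the deposited values, and each window runs from 250 bases before to 50 after a start site. Capitals mark the E-box CANNTG, the core bound by myogenic bHLH factors, and GGACTACATTTCCCAG, the longest run shared by the windows of Ppapdc3 and Tmem43 (16 bases), which was searched for after the sequences were read.
Ppapdc3 (chr2:32095278-32095577, plus strand): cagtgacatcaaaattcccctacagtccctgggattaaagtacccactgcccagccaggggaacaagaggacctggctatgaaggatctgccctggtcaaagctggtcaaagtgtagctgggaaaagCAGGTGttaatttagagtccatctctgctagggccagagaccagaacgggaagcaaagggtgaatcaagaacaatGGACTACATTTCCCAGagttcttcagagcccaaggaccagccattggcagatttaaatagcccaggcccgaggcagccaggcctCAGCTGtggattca
Tmem38a (chr8:72571573-72571872, plus strand): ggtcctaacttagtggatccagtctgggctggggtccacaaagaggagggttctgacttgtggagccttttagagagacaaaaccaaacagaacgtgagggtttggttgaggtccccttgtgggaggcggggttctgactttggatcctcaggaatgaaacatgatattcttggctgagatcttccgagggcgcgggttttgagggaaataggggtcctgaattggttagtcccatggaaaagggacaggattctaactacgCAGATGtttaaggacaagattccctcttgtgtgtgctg
Tmem43 (chr6:91473457-91473756, plus strand): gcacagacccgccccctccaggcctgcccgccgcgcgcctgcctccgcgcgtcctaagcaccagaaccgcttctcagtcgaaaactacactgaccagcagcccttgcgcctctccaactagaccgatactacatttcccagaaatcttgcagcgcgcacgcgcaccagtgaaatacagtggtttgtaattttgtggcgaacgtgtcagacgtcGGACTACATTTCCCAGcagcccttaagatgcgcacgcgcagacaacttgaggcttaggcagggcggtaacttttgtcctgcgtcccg
Nrm (chr17:35861068-35861367, plus strand): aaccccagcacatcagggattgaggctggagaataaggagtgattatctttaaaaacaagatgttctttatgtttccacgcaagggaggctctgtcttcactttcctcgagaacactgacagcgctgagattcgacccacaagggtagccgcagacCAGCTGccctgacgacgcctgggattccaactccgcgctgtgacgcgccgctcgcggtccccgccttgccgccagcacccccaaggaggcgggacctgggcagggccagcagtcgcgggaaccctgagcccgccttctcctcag
The E-box reads the same on both strands in its fixed letters and occurs in 72.3% of 32851 windows. The window of Ppapdc3 holds 2, a CAGGTG 123 bases before the start and a CAGCTG 36 bases after it. Tmem38a has 1, a CAGATG 12 bases after the start, Nrm has 1, a CAGCTG 94 bases before it, and the window of Tmem43 holds 0. The form CAGCTG is in 16.3% of all windows, and it was found in Ppapdc3 and in Nrm, which differ in opposite directions between the tissues. The run GGACTACATTTCCCAG, searched on both strands and overlapping no E-box in these windows, occurs in 28 windows, or 0.0852%. Ppapdc3 holds it 48 bases and Tmem43 37 bases before the start, and these genes differ between the tissues in opposite directions. Since the run was defined by this pair, its presence in them is no finding. These matches are letters in a window and not sites shown to be bound. The MEF2 consensus, the CArG box and TATAAA were not found in any window of the 7 genes, against 0.557%, 1.63% and 13.6% of all windows.

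Relatives of the 7 genes differed between the tissues in their own ways. Tmem38b, which encodes TRIC-B, the widely expressed relative of TRIC-A, stood at 5.93 to 7.42 FPKM in myoblasts and 25.7 to 30.1 FPKM in muscle. Tmem38a and Tmem38b were thus level in myoblasts, with ratios of 0.961 to 1.20, whereas Tmem38a was 14.6 to 16.5 times Tmem38b in muscle. Tor1aip2, the gene of the LAP1-related protein LULL1, stood at 80.3 to 94.5 FPKM in myoblasts and 24.0 to 29.1 FPKM in muscle. Tor1aip1 was 0.324 to 0.491 of Tor1aip2 in myoblasts and 0.938 to 1.21 of it in muscle. LAP1 and LULL1 activate torsin ATPases, and of the 4 torsin genes measured Tor1a stood at -1.28 and Tor2a at -1.62 in wild-type muscle against wild-type myoblasts, Tor1b at -0.65 and Tor3a at -0.62.

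The lipid phosphatase relatives of Ppapdc3 did not share its direction, apart from Ppap2b. Ppap2a stood at -2.29, Ppapdc1b at -2.36, Ppap2c at -2.03 and Ppapdc2 at -1.58, and Ppap2b at 1.70, while Ppapdc1a was listed at 0 in 5 of the 7 columns. Ppapdc3 was 0.0268 to 0.0389 of Ppapdc1b in myoblasts and 3.73 to 4.81 times it in muscle. Of 24 other nuclear envelope genes compared, a list that also holds the soluble phosphatidate phosphatase lipin-1, 4 were higher and 10 lower by 2-fold in wild-type muscle (median -0.68), near the 16.9% and 37.2% of all genes. The 4 higher were Lpin1 at 2.84, Tmem109 at 2.20, Tmem38b at 1.78 and Syne1, the nesprin-1 gene, at 1.68. The lowest was Emd, the emerin gene, at -3.74, followed by Tmem194 at -2.0, Dhcr7, a sterol reductase gene, at -1.93 and Tor1aip2 at -1.85. Tmem43, whose product binds emerin, was level with Emd in myoblasts at ratios of 0.769 to 1.05 and stood above it in muscle at 3.29 to 9.03 times.

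The genes of calcium release and storage, among which TRIC-A works, were higher in muscle by 2-fold in 16 of 19 compared and lower in 3 (median 5.56). Atp2a1, the calcium pump of fast fibres, was at 10.02, Casq1, a calcium-binding protein of the store, at 9.62, Trdn, the triadin gene, at 8.0 and Jsrp1 at 7.52. The 5.76 of Tmem38a lay near the median of this list. The unfolded protein response genes, the pathway with which wolframin is linked, went the other way, with 1 of 25 higher and 18 lower by 2-fold (median -1.76), among them Hspa5, the chaperone BiP, at -3.99, Hsp90b1 at -3.58, Hyou1 at -3.32 and Pdia4 at -2.73. The 1 higher was Atf3 at 1.39. Wfs1, at -0.26, is set beside them without a test. Of the 17 differentiation regulators and markers 13 were higher and 0 lower (median 2.93).

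**Figure D3:**
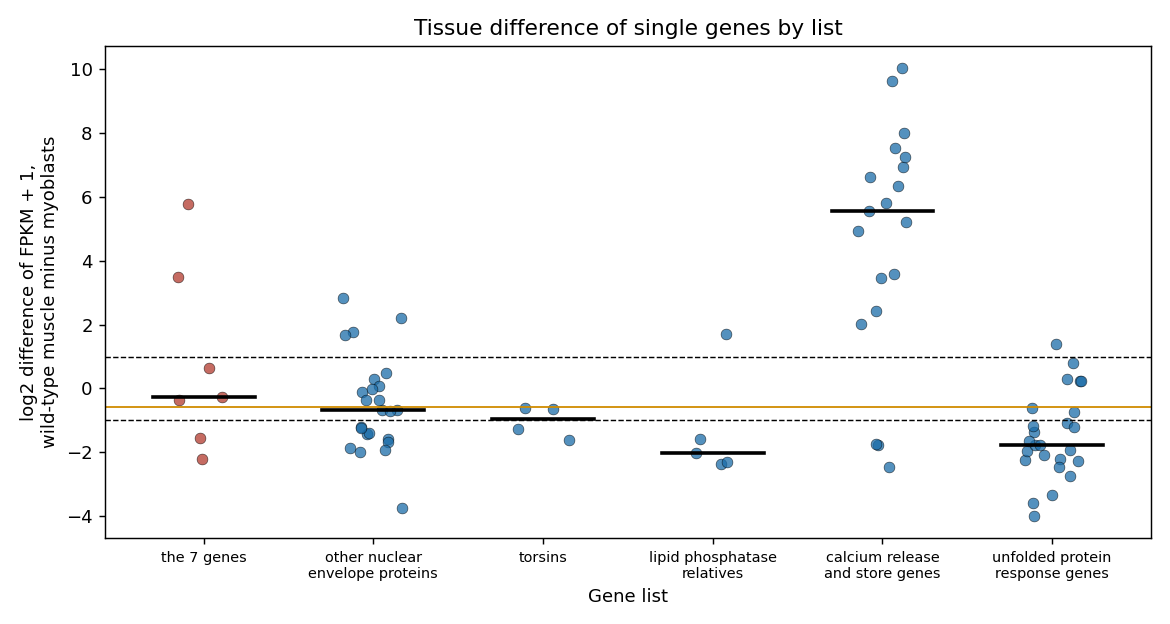
Log2 difference of FPKM + 1 between wild-type muscle and wild-type myoblasts for single genes (points) of 6 lists, with list medians as black bars, 2-fold as dashed lines and the median of all genes in orange. The 7 genes spread from -2.21 to 5.76, the calcium genes centre on 5.56 and the unfolded protein response genes on -1.76.

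In the Lbr knockout none of the 7 passed 2-fold in either tissue. In myoblasts 2.63% of 11472 genes did so against their own wild type, and in muscle 1.59% of 12000, and 0 of 7 is near these shares. In myoblasts the differences ran from -0.19 for Tmem201 to 0.31 for Tor1aip1, with Nrm at 0.30, Wfs1 at 0.25, Tmem38a at 0.23, Tmem43 at -0.11 and Ppapdc3 at -0.04. In muscle they ran from -0.05 for Ppapdc3 to 0.25 for Tor1aip1 and Nrm, with Tmem43 at 0.12, Tmem201 at 0.08, Tmem38a at 0.05 and Wfs1 at -0.01. The medians of the 7 were 0.23 in myoblasts and 0.08 in muscle, beside 0.05 and 0.10 for all genes. With the Lmna litter's wild type as reference, Wfs1 and Nrm in Lbr-knockout myoblasts turned to -0.26 and -0.18.

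The muscle genes around them depended on which single wild-type sample was the reference. In Lbr-knockout myoblasts 6 of 15 calcium genes were higher by 2-fold than the own-litter wild type (median 0.85), beside 2.51% of all genes, among them Cacng1 at 1.48, Atp2a1 at 1.38, Casq2 at 1.27 and Sln at 1.19. Against the Lmna-litter wild type 1 of 15 was, Sln at 1.06 (median 0.43). For the differentiation regulators the counts were 7 of 14 and 2 of 14. All 10 macrophage and leukocyte markers compared were higher by 2-fold than the own-litter wild type (median 1.72) and 0 of 10 than the other (median -0.01). In Lmna-knockout myoblasts 4 of 12 calcium genes were lower by 2-fold than the own-litter wild type, beside 0.578% of all genes, Casq2 at -1.82, Atp2a1 at -1.49, Casq1 at -1.25 and Cacng1 at -1.05. In the knockout Casq2, Atp2a1 and Casq1 stood at 0.918, 0.588 and 0.674 FPKM, so they met the minimum of 1 FPKM only through the wild type. The minimum is a mean over the columns compared, so the number of genes compared differs with the reference. Against the Lbr-litter wild type only Casq2 passed, at -1.36, with Atp2a1 at -0.99, Casq1 at -0.65 and Cacng1 at 0.01. For the regulators the counts were 8 of 13 (median -1.12) and 4 of 12 (median -0.52), with Cav3, Smyd1 and Mybph below 1 FPKM in the knockout. Beside these, Tmem38a stood at 0.23 and Ppapdc3 at -0.04 in Lbr-knockout and at -0.01 and -0.17 in Lmna-knockout myoblasts against their own litters, and neither passed 2-fold against the other. The lists and the 7 genes are set beside each other without a test of the difference.

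In the Lmna knockout none of the 7 passed 2-fold either, beside 1.23% of 11411 genes in myoblasts and 2.74% of 12025 in muscle. The largest differences were in muscle, where Tmem43 stood at 0.67 and Tor1aip1 at 0.54. In FPKM, Tmem43 was 1.64 times and Tor1aip1 1.47 times the wild-type value, and a difference at least as large was found in 8.77% and 15.8% of all genes. Ppapdc3 stood at -0.38, 0.760 times the wild type, and Nrm at -0.20, while Wfs1, Tmem201 and Tmem38a were between 0.05 and 0.14. In myoblasts the values ran from -0.17 for Ppapdc3 to 0.24 for Tor1aip1, and Tmem43 stood at -0.00309. The medians of the 7 were -0.00309 in myoblasts and 0.14 in muscle, beside 0.04 and 0.13 for all genes.

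The gap between the Lmna differences in muscle and in myoblasts also depended on the myoblast reference. For Tmem43 it was 0.67 against the own-litter wild type, a size reached by 10.3% of 10329 genes, 0.36 against the other litter's and 0.52 against the mean of both. For Nrm the gaps were -0.28, -0.77 and -0.53, so that either gene can be the farther from 0. A limma fit with a tissue-by-genotype term, added after seeing the data, left 1 residual degree of freedom, the difference between the wild-type myoblasts. It gave 0.52 ± 0.49 (SE) for Tmem43 and -0.53 ± 0.49 for Nrm, both with a limma adjusted p of 0.9986, and called none of the 7 for either knockout. Over 12001 genes it called 2 (0.0167%) for each knockout, Gm9846 and Krt18 for Lbr and Gm9846 and Abhd1 for Lmna, named after their values were seen, with 244 (2.03%) for Lbr and 430 (3.58%) for Lmna at an unadjusted p under 0.05. Tmem43 stood at 20.1 FPKM in Lmna-knockout muscle against 13.4 in Lbr-knockout muscle. In the same Lmna-knockout muscle, 0 of 7 fibroblast markers passed 2-fold (median -0.10) and their sum was 1664 FPKM against 1770 in the wild type, 2 of 10 macrophage and leukocyte markers compared were higher by 2-fold (median 0.37), and the 5 endothelial markers had a median of 0.36. Other lists differed more in their sums. The 11 striated muscle markers summed to 54386 FPKM against 73843 in wild-type muscle, and the 17 differentiation regulators and markers to 7598 against 12833. Both lists were divided. Most of the lower regulator sum was Actc1, at 1642 against 6501 FPKM, while Des, at 909 against 731, and Myf6, at 88.6 against 74.9, were higher. Of the striated markers Pvalb stood at 4889 against 11835 FPKM, while Myh1, at 2495 against 1898, and Myh2, at 711 against 618, were higher. The 6 Schwann cell markers summed to 589 FPKM against 455, and the 7 adipocyte markers to 95.1 against 109. The part of these cells and genes in the values of Tmem43 and Tor1aip1 was not tested. For Tor1aip1 the knockout value was above its wild type in all 4 knockout comparisons, from 0.24 to 0.54, and also above the opposite litter's wild type, at 0.36 for Lbr and 0.20 for Lmna. The muscle comparisons share their wild-type column, 18.6% of 12001 genes were higher in all 4 (7.46% after centring), and Tor1aip1 was singled out after its values were seen.

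**Figure D4:**
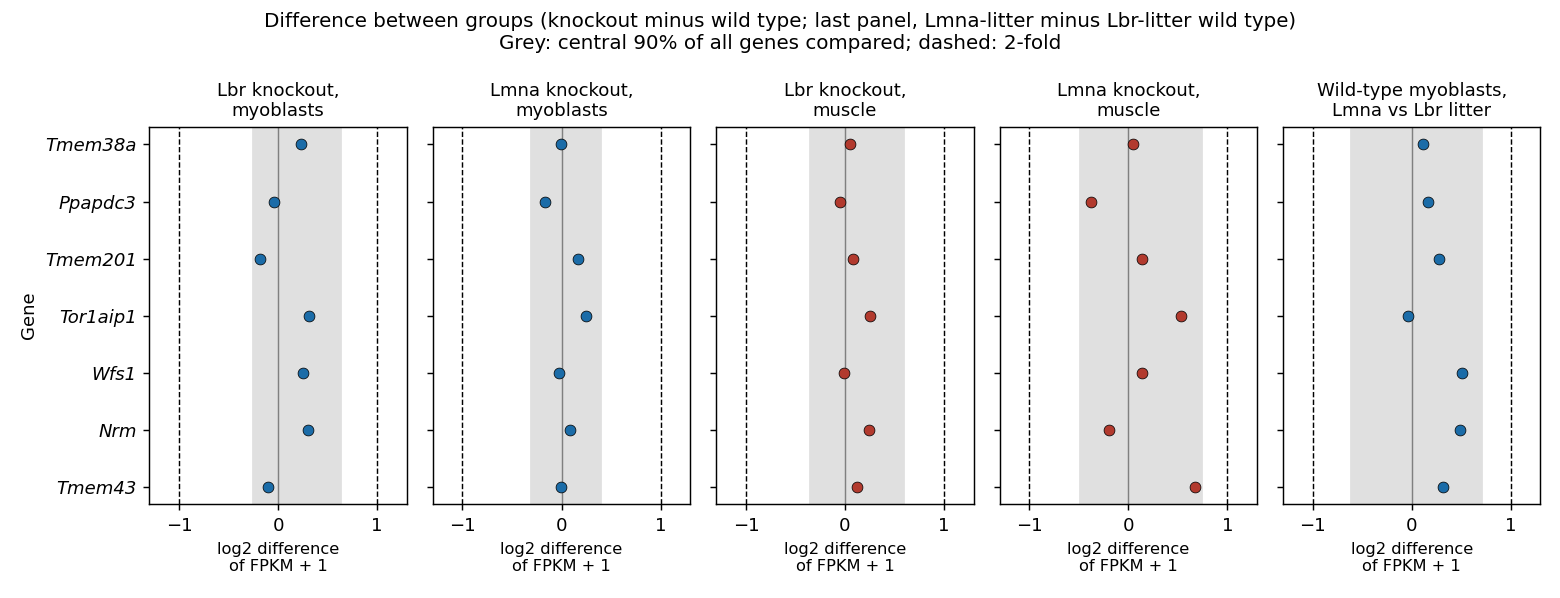
Log2 difference of FPKM + 1 for the 7 genes in the 4 knockout comparisons and between the wild-type myoblasts of the 2 litters, with the central 90% of all genes in grey and 2-fold as dashed lines. All points lie within 2-fold; the farthest from 0 is Tmem43 in Lmna-knockout muscle at 0.67.

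A limma fit of each knockout against the wild type over both tissues, the same additive fit as for the tissue, called none of the 7. The largest coefficients were those of Tor1aip1, at 0.37 ± 0.17 (SE) for Lmna (limma adjusted p 0.9649) and 0.28 ± 0.17 for Lbr (0.9998), and of Tmem43, at 0.37 ± 0.19 for Lmna (0.9649). Over 12001 genes limma called 0 (0%) for Lbr, with 254 (2.12%) at an unadjusted p under 0.05, and 1 (0.00833%) for Lmna, the pseudogene Atp6v0c-ps2, named after its value was seen, with 447 (3.72%) at an unadjusted p under 0.05. The targeted genes were not called in it, Lmna at -2.14 ± 0.30 with a limma adjusted p of 0.4802, so a missed call in this fit does not show that a gene was unchanged.

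Among myoblasts, for several of the genes, the wild-type samples of the litters differed more than a knockout did from its own wild type. Each wild-type column is 1 sample and each knockout column stands for 2. Litter therefore cannot be told apart from the single sample. The knockout columns carry no litter label and were placed with the litter of their stated control. Wfs1, Tmem201, Nrm and Tmem43 were higher in both columns of the Lmna litter, wild type and knockout, than in both columns of the Lbr litter. That holds for 4 of the 7 genes and for 39.3% of 11447 genes in all, and 29.4% were lower in both. The mean difference, Lmna litter minus Lbr litter, was 0.45 for Tmem201, 0.38 for Nrm, 0.37 for Wfs1 and 0.36 for Tmem43, beside a median of 0.06 for all genes. It also sets the Lmna knockout against the Lbr knockout, so litter and genotype are mixed in it. Between the wild types alone, Wfs1 differed by 0.51, Nrm by 0.48, Tmem43 by 0.31 and Tmem201 by 0.27, all larger than the difference of the same gene from its own-litter wild type in either knockout. Tmem38a at 0.12, Ppapdc3 at 0.16 and Tor1aip1 at -0.04 differed less, and 2.71% of 11402 genes passed 2-fold between the wild types.

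Genes with the most similar course over the 7 columns were found by the root mean square difference of log2(FPKM + 1) values, each gene centred on its own mean, over 11153 genes. Tmem38a was nearest to Fsd2 (0.06), Macrod1 (0.09) and Myo18b (0.10), the last a myosin of striated muscle, all of them below 1 FPKM in myoblasts and at 59.2 to 81.2 FPKM in muscle. Ppapdc3 was nearest to Polr2k (0.09), a subunit gene of the RNA polymerases, and Col6a6 (0.11), a collagen chain. Tmem201 was nearest to Tmem143 (0.07), the respiratory complex I gene Ndufa7 (0.07) and the ubiquitin ligase gene Stub1 (0.07), which share its higher values in the Lmna litter. Wfs1 was nearest to Hax1 (0.04), Dhdds (0.05), an enzyme of dolichol synthesis, and Atp6v1c1 (0.06), a subunit of the proton pump. Tor1aip1 was nearest to the coactivator gene Ncoa3 (0.06), Tifa (0.07) and Ypel5 (0.08). Tmem43 was nearest to Igf1r (0.06), the receptor of insulin-like growth factor, Gclm (0.08), an enzyme subunit of glutathione synthesis, and Wrb (0.09). Nrm was nearest to Ppia (0.08), the cyclophilin A gene, Tmsb4x (0.08), the thymosin beta gene, and Ovca2 (0.08), and the values of Ppia and Tmsb4x are uncertain because near-identical copies exist. Among the 7 genes themselves the closest courses were those of Wfs1 and Tor1aip1 (0.21) and of Nrm and Tmem43 (0.34), while Tmem38a and Ppapdc3 differed by 1.17. These likenesses are descriptions. The added 1 compresses values below 1 FPKM, such as those of Fsd2, Macrod1, Myo18b and Col6a6 in myoblasts. A similar course on this scale is thus not a similar ratio of FPKM between the tissues.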

How the data were processed

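RNA was sequenced from 12 samples, 6 of myoblasts and 6 of striated muscle, prepared per the labels' protocols with TRIZOL and RNeasy and with different NuGEN kits for the tissues. The authors deposited FPKM values for 22552 genes in 7 columns, 5 of which stand for 2 samples each. The build was mm9 per the submitters' processing notes, while the aligner, counter, filters and combining of samples were not given in the sources used here. Total counts are not in the table used, so depth was estimated from the spacing of low values over 4067 genes with 1 annotated transcript.

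Differences were taken on log2(FPKM + 1) for genes averaging 1 FPKM or more over the columns compared, with no value of 0, and called at 2-fold. These have no replicate check. The tests are those of limma 3.58.1 in R 4.3.3, fitted to all 7 columns with tissue and genotype as additive terms (3 residual degrees of freedom), with Benjamini-Hochberg adjustment over all genes at 0.05. On simulated data of 12001 genes with a noise SD of 0.2 (log2), the fit recovered 100% of 2-fold tissue changes and 96% of 2-fold Lmna changes, with 13 and 9 false calls. The simulated noise was independent between columns and held no litter differences and no tissue-specific responses. These rates therefore do not carry over to the deposited values. In the real fit the error includes differences between the litters and between the tissues' responses, and neither Lmna nor Lbr was called in its own knockout. The 7 genes are all named, and the likest 3 genes of each by root mean square difference, except 1 that is not reported here. The members and lists were chosen with earlier results of these data known. Other pseudocounts (0.1 and 5), a minimum of 5 FPKM, other scalings, other wild-type references and omitted columns were tried. Fits with a litter term or a tissue-by-genotype term were added after seeing the data. Promoter windows came from RefSeq, where Ppapdc3 is Plpp7.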

Additional observations from a re-analysis of the deposited data

How the results depend on the processing

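Of 681 recomputed values of the 7 genes, 675 kept their side of the 2-fold or limma threshold. Part of that count was fixed in advance. Settings that only change which genes are kept return the same difference between 2 columns, and most knockout values lie far from 2-fold. The sign differed in 38 of the 681, none of them called, among them Wfs1 (-0.02 to 0.48) and Tmem43 (-0.00309 to 0.31) in Lmna-knockout myoblasts against the other litter's wild type. Nrm dropped under 2-fold between the tissues with a pseudocount of 5 (-0.97) and with centring (-0.98), and Tmem201 passed it with centring (1.20), quantile normalization (1.23) and in the Lbr-knockout columns (1.04), a comparison added after seeing the data. The counts over all genes moved further. For Lbr-knockout myoblasts (302 genes) they were 493 with a pseudocount of 0.1, 86 with 5, 135 at a minimum of 5 FPKM and 152 against the mean of both wild types. For Lmna-knockout myoblasts (140) they were 220, 32 and 53, and 520 against the other litter's wild type. For Lbr-knockout muscle (191) they were 449, 48 and 66, for Lmna-knockout muscle (329) 716, 98 and 187, and for the wild-type litters (309) 599, 93 and 184. The tissue count (6448) was 4115 with a pseudocount of 5. Between 2 columns a larger pseudocount shrinks every log2 difference, and a higher minimum can only remove genes. The direction of those changes in the knockout and litter counts was thus fixed in advance. The cause of the changes with the wild-type reference was not tested. Leaving out 1 column in turn, limma called 0 to 1 genes for Lbr and 1 to 4 for Lmna. The higher share of called genes moved from 82.7% to 72.4% with centring in Lbr-knockout muscle and from 71.4% to 54.6% with quantile normalization in Lmna-knockout muscle. No paired analysis was possible because the columns carry no replicate numbers, other than by litter in myoblasts. A limma fit with a litter term, added after seeing the data, left 2 residual degrees of freedom and called 9568 genes for tissue, 0 for Lbr and 1 for Lmna, and of the 7 genes 6, 0 and 0. Depth limits low values in muscle, where 1 FPKM of a 2 kb transcript is about 3.86 to 8.28 fragments.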
